A study of Danio rerio with 16 samples.

Results

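The respiratory chain of the inner mitochondrial membrane was followed at the level of its messenger RNAs, as 96 genes in whole zebrafish embryos at 48 h post-fertilization (hpf). The genes were taken by symbol: nuclear genes of complexes I to V (nduf, sdh, uqcr, cox4 to cox8 and atp5 symbols) and the protein genes of mitochondrial DNA (mt-nd, mt-co, mt-cyb and mt-atp). Of the 32520 genes in the count table, 109 carried such a symbol, and 96 of these had at least 10 counts in 3 or more libraries. The 83 nuclear members comprised 32 genes of complex I, 8 of complex II, 8 of complex III, 17 of complex IV and 18 of complex V. Among them, 4 of complex II are assembly factors and 1 of complex V is an inhibitor, and the rest are subunits. The 13 mitochondrial members comprised 7 subunits of complex I, 1 of complex III, 3 of complex IV and 2 of complex V. Near the count minimum, SDHD had 13 counts in its third-highest library and SDHAF2 had 15, whereas the highest of those left out, COX6A1, NDUFS1 and 1 of several COX5B genes, had 9. The 13 genes left out were COX5B, COX6A1, COX7A2L, NDUFA12, NDUFA8, NDUFB4, NDUFB5, NDUFS1, NDUFS4, SDHC, atp5if1b, cox7a1 and ndufa4l2b. All 96 members also passed the filter on low counts of the test and were tested.

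Libraries came from 4 groups: wfikkn1 mutants exposed to TCDD (4 libraries), Tropical 5D wild type exposed to TCDD (3), wfikkn1 mutants in DMSO (4) and Tropical 5D wild type in DMSO (3). TCDD (2,3,7,8-tetrachlorodibenzo-p-dioxin) is a persistent dioxin that activates the aryl hydrocarbon receptor, and DMSO is its solvent. Embryos were held for 1 h at 4 hpf in 1 ng/mL TCDD or in 0.1% DMSO, rinsed, and collected at 48 hpf. Each library was a pool of 9 whole embryos raised in a dish of their own. wfikkn1 encodes a secreted protein with several protease-inhibitor-type domains, which in mammals binds myostatin. The labels give neither the sequence of the mutant allele nor whether the mutant and wild-type embryos came from related parents, so a difference between the lines covers every difference between these 2 stocks. No wild-type library numbered 2 is used here.

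Complexes I and II pass electrons from NADH and succinate to ubiquinone, complex III passes them on to cytochrome c, complex IV hands them to oxygen, and complex V, the ATP synthase, uses the proton gradient that complexes I, III and IV build. Most subunits are encoded in the nucleus, made on cytosolic ribosomes and imported, while a small core is encoded in mitochondrial DNA and made on mitochondrial ribosomes, so that every complex except complex II joins products of both genomes. Muscle, heart, neurons and the ionocytes of the skin are rich in mitochondria, and whole-embryo RNA sums over all of them: fewer cells of a type and less RNA per cell cannot be told apart in such samples.

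Total counts per library ran between 20597475 and 26884477. Levels are given as CPM (counts scaled to a fixed library total) after TMM scaling, and are compared across libraries for 1 gene at a time, since no transcript lengths were used. A floor of 3 counts corresponded to 0.11 to 0.145 CPM. Differences are log2 fold changes ± standard error (SE) from edgeR's quasi-likelihood test over 20098 genes, and a gene is said to have risen or fallen where its Benjamini-Hochberg adjusted p was under 0.05. As a check of the labels, wfikkn1 had 14, 15, 21 and 22 counts in mutants with TCDD and 214, 454 and 520 in wild type with TCDD, and 0, 0, 4 and 3 in mutants in DMSO against 10, 12 and 19 in wild type in DMSO. It was lower in mutants at both exposures (log2 fold change -4.50 ± 0.36, adjusted p = 4.16e-07, with TCDD, and -2.95 ± 0.68, adjusted p = 0.00737, in DMSO).

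Libraries of 1 group also differed along a shared direction, the leading component of log2 CPM once group means were removed, which held 28.8% of the within-group variance over 15143 genes. Its gene weights were then applied to log2 CPM with group means left in, so the scores also carry differences between groups. Its scores were −28.9 to −11.1 in mutants with TCDD, 14.8 to 28.1 in TCDD-exposed wild type, −8.48 to 30.4 in mutants in DMSO and −40.3 to 10.7 in wild type in DMSO. Nuclear members were concentrated at its low end, with a median weight at percentile 15.7 of all genes over the 70 nuclear members scored, whereas the 13 mitochondrial members had their median at percentile 56.3. The lowest score belonged to wild-type DMSO replicate 4, so counts of called members that use wild-type DMSO are given with and without it. The score separates mutants with TCDD from mutants in DMSO without overlap, and wild type with TCDD from wild type in DMSO in the opposite direction, so the score and the groups cannot be told apart.

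The nuclear members of the chain took up a larger share of all counts in mutants with TCDD than in any other group, while over nuclear and mitochondrial members together the TCDD groups of both lines overlapped. Nuclear members summed to 0.529%, 0.546%, 0.522% and 0.540% of all counts in mutants with TCDD and to 0.423%, 0.461% and 0.469% in wild type with TCDD. They summed to 0.376%, 0.38%, 0.384% and 0.377% in mutants in DMSO and to 0.374%, 0.388% and 0.482% in wild type in DMSO. The 4 mutant TCDD libraries were above all others, while the wild-type TCDD libraries fell inside the range of wild-type DMSO, whose replicate 4 was above all wild-type TCDD libraries. Mitochondrial members summed to 2.74% ± 0.236 in mutants with TCDD, 2.68% ± 0.277 in TCDD-exposed wild type, 2.39% ± 0.173 in mutants in DMSO and 2.39% ± 0.109 in wild type in DMSO (SD, n = 4, 3, 4 and 3). These groups overlapped, since 1 mutant TCDD library had 2.51% and 1 mutant DMSO library had 2.55%. Together, nuclear and mitochondrial members took 3.06% to 3.52% in mutants with TCDD, 2.83% to 3.31% in wild type with TCDD, 2.52% to 2.93% in mutants in DMSO and 2.76% to 2.86% in wild type in DMSO. The ratio of mitochondrial to nuclear counts was 5.13 ± 0.450 in mutants with TCDD, 5.97 ± 0.850 in TCDD-exposed wild type, 6.31 ± 0.425 in mutants in DMSO and 5.86 ± 1.02 in wild type in DMSO. In mutants it was 4.60 to 5.51 with TCDD, below every DMSO library at 5.69 to 6.65.

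**Figure D1:**
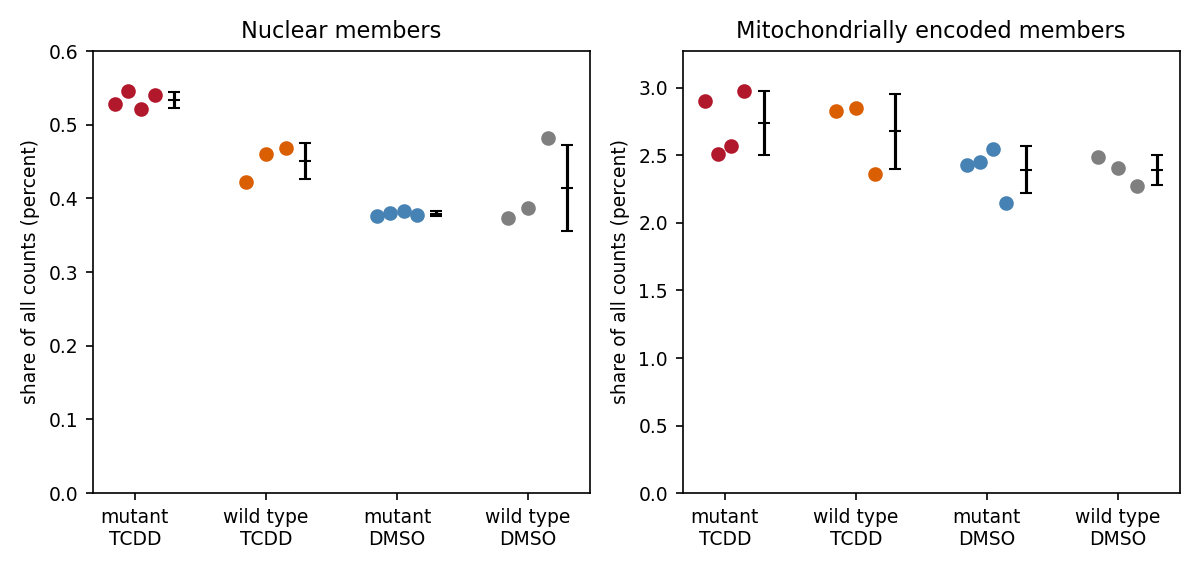
Share of all counts (percent) taken by nuclear members (left) and mitochondrially encoded members (right) in each library; points are libraries, bars the group mean ± SD (n = 4, 3, 4 and 3 libraries). The 4 mutant TCDD libraries sit between 0.522% and 0.546% for nuclear members, above every other library, while the mitochondrial shares overlap between groups.

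TCDD raised most of the chain in mutants. In wild type a smaller number of its genes rose, and that number depended on single libraries and on the fit. In mutants, 58 of 96 members rose and 1 fell, where 17.5% of all tested genes rose and 18.6% fell. In wild type, 19 members rose and 2 fell, where 8.84% of all tested genes rose and 5.75% fell. The TCDD and DMSO libraries did not overlap for 59 members that were higher and 1 that was lower with TCDD in mutants (19.5% and 17.8% of all tested genes), and for 23 higher and 4 lower in wild type (16.2% and 11.4%). The median log2 fold change over the members was 0.56 in mutants and 0.22 in wild type, against 0.0045 in mutants and 0.03 in wild type over all tested genes. By complex, 19 of 32 nuclear complex I genes rose in mutants, 3 of 8 of complex II, 4 of 8 of complex III, 11 of 17 of complex IV and 14 of 18 of complex V. In wild type the same complexes had 6, 1, 0, 3 and 3 members that rose, or 9, 3, 1, 6 and 6 without wild-type DMSO replicate 4. Of the 13 mitochondrial genes, 7 rose in mutants and 6 in wild type, where 4 rose without that library. Without it 1194 of 20408 tested genes rose in wild type. Both comparisons use different libraries, and 18 members rose in both, which is 31% of the 58 in mutants and 94.7% of the 19 in wild type. Over all tested genes, 537 rose in both, 15.2% of those in mutants and 30.2% of those in wild type. As 60.4% of members and 17.5% of all tested genes rose in mutants, these shares alone do not show closer agreement between lines among members.

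The calls in mutants, with 4 libraries per group, depended little on single libraries. Those in wild type, with 3 per group, depended on them strongly, and the part of group size in this was not tested. Of the 58 members that rose in mutants, 51 did so whichever library of the 2 groups was left out. In wild type 4 of 19 did so, namely mt-nd2, mt-nd6, mt-atp6 and ndufb6, and the count of members that rose varied. It was 5 without wild-type DMSO replicate 1, 12 without wild-type DMSO replicate 3, 12 without wild-type TCDD replicate 3 or 4, and 29 without wild-type DMSO replicate 4. Over all tested genes 1177 rose without wild-type DMSO replicate 1, 1709 without replicate 3 and 1194 without replicate 4 of that group. Without wild-type TCDD replicate 3 or 4, 1254 and 1205 rose. The count of members that fell in wild type was 5 without wild-type DMSO replicate 3 and 4 without wild-type DMSO replicate 4. There 1308 and 1264 of all tested genes fell. Fitted on the 6 wild-type libraries alone, 3 members rose, where 773 of 19240 tested genes rose. In that fit, and without wild-type DMSO replicate 1, members rose in no larger share than all tested genes. Without any other single wild-type library their share was larger. With the library score as a term, 25 members rose in mutants and 24 in wild type. Over all 20098 tested genes that fit called 963 higher in mutants and 683 in wild type, against 3524 and 1777 without the term. Scaling on nuclear genes alone turned the split over all genes in wild type from 1777 higher and 1156 lower to 1489 higher and 1645 lower, with 14 members higher and 4 lower.

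**Figure D2:**
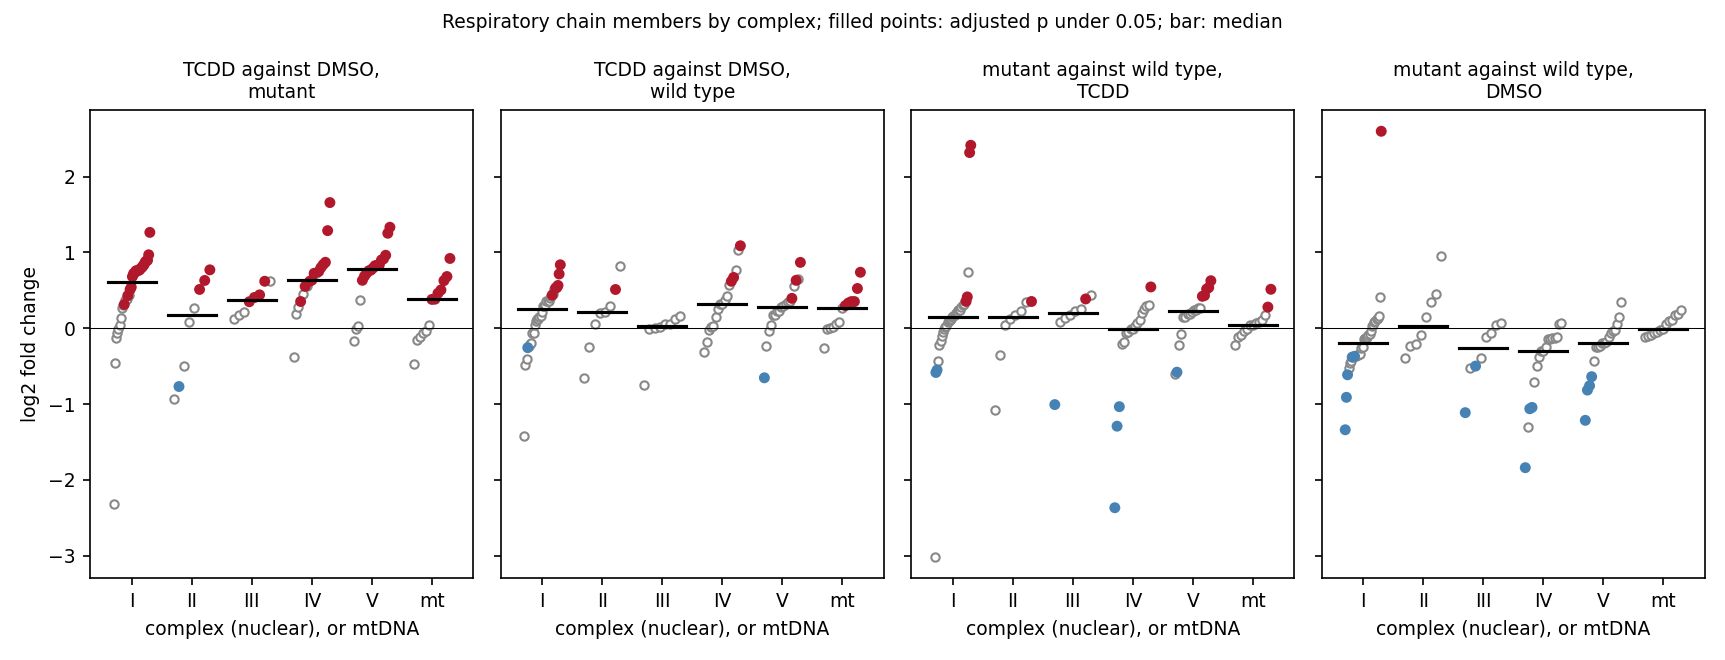
Log2 fold change of each member by complex (nuclear genes of complexes I to V, and the 13 mitochondrial genes) in the 4 comparisons; filled points had an adjusted p under 0.05, and bars are medians. In mutants with TCDD the medians lie above 0 for every complex (0.61, 0.18, 0.38, 0.63 and 0.78 for complexes I to V), whereas complex III in wild type has a median of 0.03 and no filled point. The complex II points include 4 assembly factors, whose own median in mutants with TCDD is -0.63.

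Complex I oxidizes NADH, and among its nuclear members those that rose in both lines with the smallest adjusted p in wild type were the accessory subunits ndufb6, ndufa7 and ndufb7. ndufb7, an accessory subunit of the membrane arm, had 5.25, 5.42, 5.56 and 5.62 CPM in mutants with TCDD against 3.0, 3.48, 3.07 and 2.18 CPM in mutants in DMSO. In wild type, ndufb7 had 4.33, 4.93 and 5.24 CPM with TCDD against 1.97, 2.32 and 3.83 CPM in DMSO. Neither pair of groups overlapped. The log2 fold change was 0.90 ± 0.19 in mutants (adjusted p = 0.00192) and 0.84 ± 0.23 in wild type (adjusted p = 0.0211), and the wild-type call was lost without any of 4 libraries (adjusted p 0.0576 to 0.0953). ndufb6, of the same arm, had 15.2, 17.3, 17.6 and 17.3 CPM in mutants with TCDD against 9.14, 10.5, 7.76 and 10.7 CPM in mutants in DMSO. In wild type, ndufb6 had 12.7, 14.2 and 15.9 CPM with TCDD against 8.09, 9.69 and 8.33 CPM in DMSO. Again no library of a TCDD group reached down into its DMSO group (0.82 ± 0.12 in mutants, adjusted p = 0.000129, and 0.72 ± 0.14 in wild type, adjusted p = 0.0051). ndufa7, an accessory subunit of the matrix arm, was 16.5 to 19.2 CPM in mutants with TCDD and 8.24 to 11.2 CPM in mutants in DMSO (0.84 ± 0.12, adjusted p = 7.31e-05), and 15.1 to 17 CPM in wild type with TCDD and 9.38 to 12 CPM in wild type in DMSO (0.56 ± 0.13, adjusted p = 0.0116, or 0.0573 without wild-type DMSO replicate 1).

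ndufa5 and ndufb10 also rose in both lines, with log2 fold changes of 0.89 and 0.68 in mutants and 0.53 and 0.54 in wild type, where leaving out single libraries ended both calls (adjusted p up to 0.146 and 0.176). ndufa4l rose by 0.76 in mutants and 0.44 in wild type, where the call was lost without any 1 of 4 libraries (adjusted p 0.0513 to 0.148). Its mammalian relative NDUFA4 has been placed in complex IV, although the symbol puts ndufa4l with complex I here. The steepest complex I gene in mutants was ndufs6, a small subunit of the NADH-oxidizing module, with 5.75, 7.41, 7.04 and 6.87 CPM in mutants with TCDD against 2.76, 3.19, 3.25 and 2.06 CPM in mutants in DMSO. Its mutant groups were well apart (1.26 ± 0.22, adjusted p = 0.000402), while in wild type they overlapped (0.45 ± 0.24, adjusted p = 0.24).

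The catalytic subunit ndufv1, where NADH binds and gives up its electrons, did not rise. It had 263, 250.2, 249 and 246 CPM in mutants with TCDD against 219.9, 225, 246 and 230.4 CPM in mutants in DMSO. In wild type, ndufv1 had 174, 193 and 202 CPM with TCDD against 215, 236 and 228 CPM in DMSO. In wild type every TCDD library was below every DMSO library and ndufv1 fell (-0.26 ± 0.07, adjusted p = 0.030), a call lost without any of 3 libraries (adjusted p 0.0602 to 0.107). In mutants the value was 0.13 ± 0.06 (adjusted p = 0.126). Its partner ndufv2, an iron-sulfur subunit, rose in mutants by 0.77 (adjusted p = 0.00828). 3 complex I genes were too low or too uneven to follow: ndufa1 at no more than 28 counts in any library, NDUFB9 at 0 to 43 counts with zeros in mutant libraries of both exposures, and ndufs7, which had 9, 99 and 48 counts in wild type with TCDD and 201, 150 and 48 counts in wild type in DMSO.

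Complex II, the succinate dehydrogenase that is also an enzyme of the citric acid cycle, had 3 of 8 nuclear members that rose in mutants, namely sdha, sdhb and sdhdb. sdhb, its iron-sulfur subunit, had 25, 24.2, 21.1 and 23.4 CPM in mutants with TCDD against 12, 15.9, 12.4 and 14.5 CPM in mutants in DMSO. In wild type, sdhb had 21.1, 21.4 and 25.9 CPM with TCDD against 14.7, 14.1 and 18.8 CPM in DMSO. It was the complex II gene that rose in both lines (0.77 ± 0.12, adjusted p = 0.00019, in mutants, and 0.52 ± 0.14, adjusted p = 0.0197, in wild type, with adjusted p of 0.0661 to 0.0911 without any 1 of 3 libraries). sdha, the flavoprotein that oxidizes succinate, rose in mutants by 0.63 ± 0.08 (adjusted p = 4.43e-05), and the membrane anchor sdhdb by 0.51 ± 0.11 (adjusted p = 0.00223). The other anchor gene among the members, SDHD, had 0.35 to 0.621 CPM in mutants with TCDD and 0.288 to 0.629 CPM in mutants in DMSO and did not pass the test (0.08 ± 0.40, adjusted p = 0.90). Of the 4 complex II members that are assembly factors rather than subunits, none rose. sdhaf1, which in yeast and humans helps load iron-sulfur clusters into SDHB, fell in mutants and was the single member to do so, with 12.9, 9.39, 7.74 and 11.3 CPM in mutants with TCDD against 18.4, 15.6, 20.3 and 16.2 CPM in mutants in DMSO (-0.77 ± 0.19, adjusted p = 0.00413, or 0.0598 with the library score as a term). In wild type the libraries were also apart, at 7.07 to 10.36 CPM with TCDD and 10.43 to 17.2 CPM in DMSO, but the value did not pass the test (-0.66 ± 0.22, adjusted p = 0.0536).

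In complex III, the cytochrome bc1 complex, 4 of 8 nuclear members rose in mutants and 0 in wild type, where 1 rose without wild-type DMSO replicate 4. cyc1, the cytochrome c1 of this complex, has a symbol outside the rule and rose in both lines (0.78 ± 0.09, adjusted p = 2.57e-05, in mutants and 0.35 ± 0.11, adjusted p = 0.0394, in wild type). In mutants uqcrc2a and uqcrc2b, which encode core protein 2, rose by 0.62 ± 0.10 (adjusted p = 0.000216) and 0.41 ± 0.09 (adjusted p = 0.00328). uqcrfs1, the Rieske iron-sulfur protein that takes electrons from ubiquinol, had 235, 235, 231 and 255 CPM in mutants with TCDD against 177, 198, 192 and 183 CPM in mutants in DMSO (0.35 ± 0.07, adjusted p = 0.00103). In wild type it stood at 174, 186 and 188 CPM with TCDD and 172, 172 and 203 CPM in DMSO, with overlapping groups (0.01 ± 0.08, adjusted p = 0.977). None of the 8 nuclear complex III members passed the test in wild type by edgeR or by DESeq2, and none had an unadjusted p under 0.05 (0 higher and 0 lower by each). The hinge subunit uqcrh rose in mutants by 0.44, with an adjusted p of 0.0122, or 0.0501 without mutant TCDD replicate 2. The core protein 1 gene uqcrc1 passed the test in neither line (0.12 ± 0.18 in mutants and 0.01 ± 0.21 in wild type, adjusted p = 0.659 and 0.979).

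Complex IV, cytochrome c oxidase, is built around mitochondrially encoded catalytic subunits, and its nuclear genes code for the subunits around that core, several of them in paired isoforms. cox8a had 49.9, 57.8, 56.2 and 49.6 CPM in mutants with TCDD against 33.5, 29.1, 29.7 and 24.8 CPM in mutants in DMSO. In wild type, cox8a had 39.3, 52.2 and 56.5 CPM with TCDD against 26.6, 35 and 34.7 CPM in DMSO. Both pairs of groups were separate (0.87 ± 0.12, adjusted p = 8.92e-05, in mutants and 0.62 ± 0.14, adjusted p = 0.00993, in wild type, or 0.0546 without wild-type DMSO replicate 1). cox7b rose likewise, by 0.75 ± 0.15 in mutants (adjusted p = 0.000898) and 0.67 ± 0.17 in wild type (adjusted p = 0.0145, and 0.0636 to 0.064 without either of 2 libraries). cox8b, the rarer copy, had the largest log2 fold change of any member in mutants, 1.66 ± 0.44 (adjusted p = 0.0071), at levels of 0.397 to 1.05 CPM with TCDD and 0.165 to 0.361 CPM in DMSO. These levels rest on few reads, 17, 9, 19 and 27 counts with TCDD and 4, 6, 8 and 4 in DMSO. The DMSO counts were near the floor of 3, so the size of this change is uncertain.

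Both copies of subunits 5A and 6B rose in mutants. cox5aa and cox5ab, the 2 copies of subunit 5A, rose by 0.84 and 0.62, and cox6b1 and cox6b2 by 0.80 and 0.72, with the cox6b1 call lost without mutant DMSO replicate 2 (adjusted p = 0.0535). Of the 3 copies of subunit 4, cox4i1 rose in mutants (0.63 ± 0.13, adjusted p = 0.00102), COX4I2 did not pass the test (-0.38 ± 0.17, adjusted p = 0.101), and cox4i1l passed it in wild type alone, without a test of the difference past the threshold (-0.53 ± 0.49, adjusted p = 0.552). cox4i1l had 1.28, 0.617, 1.16 and 0.698 CPM in mutants with TCDD against 0.725, 0.623, 0.496 and 0.70 CPM in mutants in DMSO. In wild type, cox4i1l had 4.38, 3.22 and 7.03 CPM with TCDD against 1.37, 3.01 and 2.49 CPM in DMSO. Its wild-type log2 fold change of 1.09 ± 0.33 (adjusted p = 0.0373) was the largest among members there, and the call was lost without any of 4 libraries (adjusted p 0.0558 to 0.208). cox6c, at 36.7, 34.2, 69.3 and 34.8 CPM in mutants with TCDD against 15.6, 23.7, 17.9 and 14.3 CPM in mutants in DMSO, rose in mutants by 1.29 ± 0.24 (adjusted p = 0.00059), with 1 TCDD library far above the other 3. COX5B and COX7A2 each label several genes, and reads of such near copies may have been split between them.

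Complex V, the ATP synthase, had the highest share of members that rose in mutants, 14 of 18 nuclear genes. atp5fa1 and atp5f1b encode the alpha and beta subunits of its catalytic head. atp5fa1 had 631, 738, 641 and 677 CPM in mutants with TCDD against 364, 377, 363 and 413 CPM in mutants in DMSO. In wild type, atp5fa1 had 445, 489.9 and 475 CPM with TCDD against 332, 349 and 480 CPM in DMSO. The mutant groups were far apart and the wild-type groups overlapped (0.82 ± 0.10, adjusted p = 2.56e-05, in mutants and 0.28 ± 0.11, adjusted p = 0.109, in wild type). atp5f1b gave 0.83 ± 0.11 in mutants (adjusted p = 5.43e-05) and 0.32 ± 0.13 in wild type (adjusted p = 0.103).

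In the stalk that holds the head, atp5po, the OSCP subunit, rose in both lines (0.77 ± 0.08, adjusted p = 1.07e-05, in mutants, and 0.39 ± 0.09, adjusted p = 0.0121, in wild type, or 0.0607 without wild-type DMSO replicate 1). atp5pd, subunit d of the same stalk, went the other way in wild type, with 163, 149.7 and 183 CPM in wild type with TCDD against 235, 259 and 285 CPM in wild type in DMSO. All 3 TCDD libraries were below all 3 DMSO libraries, and atp5pd fell (-0.65 ± 0.11, adjusted p = 0.00234) whichever library was left out. In mutants it had 199, 177, 207 and 199 CPM with TCDD against 226, 227, 249.5 and 181 CPM in DMSO, and the overlapping groups gave -0.17 ± 0.10 (adjusted p = 0.168).

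atp5if1a, the inhibitor that stops the synthase from running backwards and splitting ATP, had 7.03, 7.89, 6.9 and 7.64 CPM in mutants with TCDD against 2.66, 3.41, 2.89 and 2.72 CPM in mutants in DMSO. In wild type, atp5if1a had 4.38, 6.2 and 7.86 CPM with TCDD against 1.76, 4.26 and 4.1 CPM in DMSO. It rose in both lines (1.33 ± 0.23, adjusted p = 0.000362, in mutants and 0.87 ± 0.27, adjusted p = 0.0367, in wild type, where the call was lost without any of 3 libraries at adjusted p 0.0878 to 0.16). Of the genes for subunit c, which forms the membrane ring, atp5mc1 and atp5mc3a rose in mutants by 0.63 and 0.91, while atp5mc3b did not pass the test (0.02 ± 0.13, adjusted p = 0.904). atp5f1d, the delta subunit of the central stalk, rose by 0.90 in mutants and 0.63 in wild type, where its adjusted p of 0.0492 became 0.0873 to 0.188 without any 1 of 4 libraries.

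Of the mitochondrial genes, the same 6 rose with TCDD in both lines in the main fit. mt-nd1 rose in mutants, and the other 6 passed the test in neither line. By DESeq2, 7 rose and 1 fell in mutants, and 5 rose in wild type. mt-nd6, the gene with the largest change and the one subunit read from the opposite strand of mitochondrial DNA, had 158, 166, 169.9 and 185 CPM in mutants with TCDD against 98, 96.2, 90 and 74.3 CPM in mutants in DMSO. In wild type, mt-nd6 had 148, 191 and 139 CPM with TCDD against 105, 88.7 and 93.3 CPM in DMSO. No TCDD library overlapped its DMSO group (0.92 ± 0.11, adjusted p = 1.78e-05, in mutants). In human cells the ND6 message carries no long poly(A) tail, and these libraries were selected for poly(A). mt-atp6, subunit a of the ATP synthase with its proton path, had 2166, 2221, 2260 and 2173 CPM in mutants with TCDD against 1346, 1394, 1405 and 1355 CPM in mutants in DMSO. In wild type, mt-atp6 had 1426, 1696 and 1511 CPM with TCDD against 1164, 1282 and 1186 CPM in DMSO. The log2 fold change was 0.68 ± 0.06 in mutants (adjusted p = 2.81e-06) and 0.35 ± 0.07 in wild type (adjusted p = 0.00612). mt-nd2, a proton-pumping subunit of complex I, had 1049, 1035, 1202 and 1074 CPM in mutants with TCDD against 735, 748, 705 and 635 CPM in mutants in DMSO. In wild type, mt-nd2 had 807, 1057 and 832 CPM with TCDD against 632, 652 and 590.4 CPM in DMSO, again with no overlap.

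mt-nd4, mt-co2 and mt-co3 rose in both lines, by 0.46, 0.50 and 0.38 in mutants and by 0.33, 0.35 and 0.30 in wild type. These wild-type calls were lost without single libraries, at adjusted p of up to 0.175 for mt-nd4, 0.0632 for mt-co2 and 0.215 for mt-co3. That of mt-co3 was also lost under RLE or nuclear-only scaling, other filters, DESeq2 and the replicate block (adjusted p 0.0524 to 0.0965). mt-nd4 lost its call under RLE or nuclear-only scaling and without a filter (0.0505 to 0.0525). With the library score both were lost (0.151 and 0.159). With the wild-type libraries alone mt-nd4, mt-co2 and mt-co3 were lost (0.117 to 0.229), as was mt-atp6 (0.112). mt-nd1 rose in mutants (0.38 ± 0.08, adjusted p = 0.00137), and in wild type its value was 0.26 ± 0.09 (adjusted p = 0.0607). MT-CO1, the catalytic heart of complex IV, had 9884, 8019.9, 7709 and 10236 CPM in mutants with TCDD against 9463, 9239.6, 10061 and 7929 CPM in mutants in DMSO. In wild type, MT-CO1 had 10420, 9775 and 8491 CPM with TCDD against 9411, 9509 and 9796 CPM in DMSO. Its groups overlapped fully (-0.03 ± 0.10, adjusted p = 0.823, in mutants and 0.00 ± 0.11, adjusted p = 0.994, in wild type). MT-CYB, MT-ND5, MT-ND3 and mt-nd4l likewise lay between −0.15 and 0.04 in mutants and between −0.01 and 0.08 in wild type.

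In each of 2 pairs of mitochondrial neighbours with overlapping reading frames, 1 gene rose and the other did not. Other neighbours were called differently too, such as MT-CO1 and mt-co2. In vertebrates the reading frames of ATP8 and ATP6 overlap on 1 message, as do those of ND4L and ND4. Reads near the overlap therefore belong to both. mt-atp8 gave -0.47 ± 0.19 in mutants (adjusted p = 0.068) and -0.26 ± 0.22 in wild type (adjusted p = 0.477), beside the rise of mt-atp6. mt-nd4l gave -0.06 ± 0.15 and 0.06 ± 0.18 (adjusted p = 0.798 and 0.874), beside the rise of mt-nd4. How reads in such overlaps, and on the opposite strand, were assigned is not given in the sources used here, so values of these 4 genes and of mt-nd6 are uncertain to that extent.

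**Figure D3:**
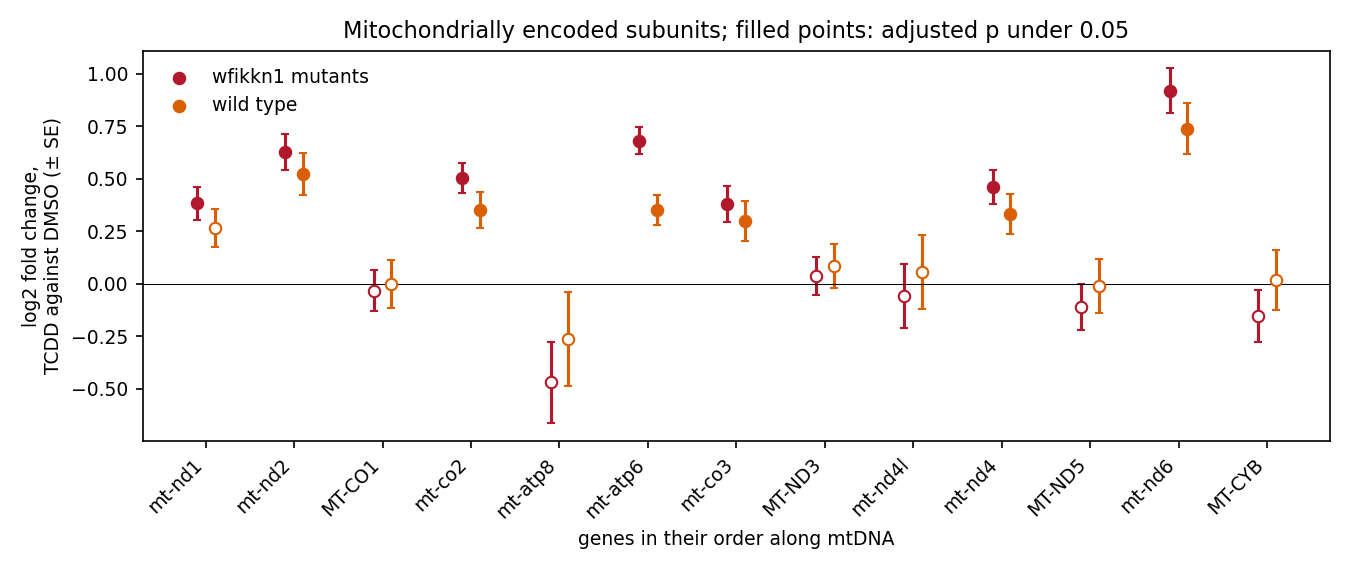
Log2 fold change of TCDD against DMSO (± SE) for the 13 mitochondrially encoded genes in their order along mitochondrial DNA, in wfikkn1 mutants (left point of each pair) and wild type (right point); filled points had an adjusted p under 0.05. mt-nd6 is highest in both lines (0.92 in mutants and 0.74 in wild type), and 6 genes, among them MT-CO1 and MT-CYB, are open in both.

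The effect of TCDD itself differed between the lines for 7 members, all higher in mutants, where 1.85% of all tested genes had a higher effect in mutants (372 of 20098, with 2044 lower). They were uqcrc2a (0.63 ± 0.15, adjusted p = 0.00984), ndufv1 (0.39 ± 0.10, adjusted p = 0.0144), atp5fa1 (0.54 ± 0.15, adjusted p = 0.0225), mt-atp6 (0.33 ± 0.10, adjusted p = 0.0318), sdha (0.41 ± 0.12, adjusted p = 0.0403), atp5pd (0.48 ± 0.15, adjusted p = 0.0412) and uqcrfs1 (0.34 ± 0.11, adjusted p = 0.0422). They include ndufv1 and sdha, through which electrons enter complexes I and II, and a core and the Rieske protein of complex III. uqcrc2a shows the pattern, with 128, 151, 112 and 125 CPM in mutants with TCDD against 84.2, 85.9, 76.7 and 89.6 CPM in mutants in DMSO. In wild type, uqcrc2a had 125, 108 and 122 CPM with TCDD against 107, 110.2 and 139.7 CPM in DMSO. Its mutant groups did not overlap and its wild-type groups did. For ndufv1 and atp5pd the difference combines a fall in wild type with mutant values of 0.13 and -0.17 that did not pass the test.

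No member had a lower effect in mutants by edgeR or DESeq2 (0 by each, and 0 at an unadjusted p under 0.05), whereas 24 members had a higher one at an unadjusted p under 0.05. The share of all tested genes at that unadjusted threshold was not counted, so the 24 have no background here. The median difference over members was 0.27, against 0.05 over all tested genes. The count of 7 moved with the setting. It was 14 by DESeq2 and 14 with nuclear-only scaling. It was 16 without wild-type DMSO replicate 1, 3 without mutant DMSO replicate 4, mutant TCDD replicate 2 or mutant TCDD replicate 4, and 2 without wild-type TCDD replicate 1. Without wild-type DMSO replicate 4 it was 5, of which 4 were among the 7, with sdha, atp5pd and uqcrfs1 lost. The count over all tested genes, 372 in the main fit, moved as well. By DESeq2 832 were higher, with nuclear-only scaling 763, and without wild-type DMSO replicate 1 609. Without mutant DMSO replicate 4, mutant TCDD replicate 2 or mutant TCDD replicate 4, 224, 155 and 237 were higher. Without wild-type TCDD replicate 1 or wild-type DMSO replicate 4, 132 and 160 were. With the library score as a term, 0 members and 0 of all 20098 genes differed, so that fit tells nothing about the members. uqcrc2a and ndufv1 passed whichever library was left out. The other 5 did not, with adjusted p of up to 0.0639 for atp5fa1, 0.101 for mt-atp6, 0.112 for sdha, 0.12 for atp5pd and 0.113 for uqcrfs1.

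**Figure D4:**
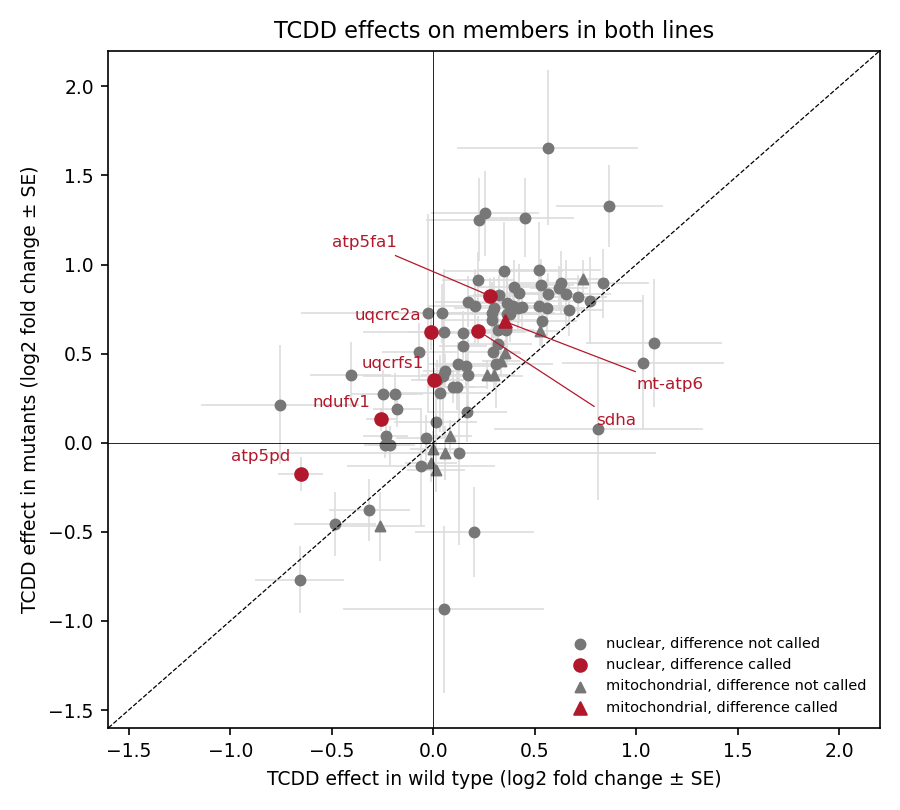
Effect of TCDD on each member in wfikkn1 mutants (vertical) and in wild type (horizontal), as log2 fold change ± SE, for 94 of the 96 members; NDUFB9 and ndufs7, whose counts were uneven within groups, are left out. Red points mark the 7 members whose effect differed between lines; all 7 lie above the dashed line of equal effects.

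Mutants and wild type were also compared at the same exposure. With TCDD, 14 members were higher and 7 lower in mutants than in wild type, where 10.7% of all tested genes were higher and 16.9% lower. The 14.6% of members that were higher was near that background. In DMSO, 1 was higher and 14 were lower, where 8.21% of all tested genes were higher and 8.6% lower. 6 were lower in mutants at both exposures: cox4i1l, cox6b1, uqcrc1, atp5mc3b, NDUFB1 and ndufa3. These are 85.7% of the 7 lower with TCDD and 42.9% of the 14 lower in DMSO, against 23.1% and 45.3% over all tested genes. The median over members was 0.14 with TCDD and −0.13 in DMSO. Without wild-type DMSO replicate 4 the count of members lower in DMSO was 8, and without mutant DMSO replicate 4 it was 9. Over all tested genes 1136 and 1272 were lower there, against 1728 with every library. The 1 member higher in DMSO lost its call without wild-type DMSO replicate 4, where 1 other member was higher. With TCDD the count higher was 7 without wild-type TCDD replicate 1, 9 without mutant TCDD replicate 2 and 8 without mutant TCDD replicate 4. Over all tested genes 1430, 1522 and 1781 were higher there, against 2157 with every library. With the library score as a term, 1 of the 14 higher and 6 of the 7 lower calls with TCDD were kept, and 0 of the 1 higher and 5 of the 14 lower calls in DMSO. Over all tested genes that fit called 497 higher and 861 lower with TCDD, against 2157 and 3395 without the term. In DMSO it called 793 higher and 1003 lower, against 1650 and 1728.

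Marker genes of several tissues, some of them rich in mitochondria, differed between the lines as well. Summed heart markers (7 genes, 6 tested) were 59.73 to 68.33 CPM in mutants and 77.29 to 85.53 CPM in wild type with TCDD, and 57.5 to 69.94 CPM in mutants against 72.1 to 87.35 CPM in wild type in DMSO. Summed erythroid markers (5 genes, 3 tested) were 411.5 to 544 CPM in mutants and 667.4 to 981.5 CPM in wild type with TCDD, and 253.5 to 337.3 CPM in mutants against 600.2 to 998.9 CPM in wild type in DMSO. Both sums were lower in every mutant library than in any wild-type library at the same exposure. With TCDD this also held for summed neuronal markers (5 genes), at 2910 to 3101 CPM in mutants and 3155 to 3402 CPM in wild type, and for summed liver and yolk markers (7 genes), at 17490 to 19470 CPM in mutants and 20190 to 24930 CPM in wild type. In DMSO these sums overlapped, with neuronal markers at 3426 to 3561 CPM in mutants against 3209 to 3742 CPM in wild type and liver and yolk markers at 15410 to 20110 CPM in mutants against 18780 to 21880 CPM in wild type. In DMSO, 6 of 10 fast muscle, 3 of 7 slow muscle, 2 of 6 heart, 2 of 3 erythroid and 2 of 7 liver and yolk markers were lower in mutants, and 1 fast muscle marker was higher. With TCDD, 2 of 10 fast muscle, 2 of 7 slow muscle, 1 of 6 heart, 1 of 3 erythroid, 1 of 5 ionocyte and 1 of 7 liver and yolk markers were lower, and 1 ionocyte and 2 liver and yolk markers were higher. Of the 5 neuronal markers 0 passed the test between lines at either exposure. The share of all tested genes without overlap between lines was not counted, so the separate sums have no background here. Over all tested genes, 8.21% were higher and 8.6% lower in DMSO, and 10.7% and 16.9% with TCDD. The 20% of fast muscle, 20% of ionocyte, 16.7% of heart and 14.3% of liver and yolk markers lower with TCDD were near that background. The part of these tissues in the line differences of the respiratory chain genes was not tested.

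Among the 6 members lower in mutants at both exposures, the log2 difference was largest for cox4i1l, the variant copy of cytochrome oxidase subunit 4 whose libraries are given above. Every mutant library, at 0.617 to 1.28 CPM with TCDD and 0.496 to 0.725 CPM in DMSO, was below every wild-type library, and the log2 difference was -2.37 ± 0.33 with TCDD (adjusted p = 7.6e-05) and -1.84 ± 0.35 in DMSO (adjusted p = 0.0021). uqcrc1, core protein 1 of complex III, had 11.6, 8.07, 14.8 and 15.9 CPM in mutants and 24.2, 25 and 26.7 CPM in wild type with TCDD, and 12.2, 12.3, 10.1 and 11.7 CPM in mutants against 20.4, 21.6 and 33.3 CPM in wild type in DMSO. It too was lower in every mutant library (-1.01 ± 0.19, adjusted p = 0.000959, with TCDD and -1.11 ± 0.19, adjusted p = 0.000965, in DMSO). cox6b1, a subunit on the cytochrome c side of complex IV, was lower by -1.03 ± 0.25 with TCDD (adjusted p = 0.00463) and by -1.06 ± 0.26 in DMSO (adjusted p = 0.0096, or 0.093 without wild-type DMSO replicate 4). atp5mc3b, a subunit c gene, had 98.2, 91.4, 72.6 and 101 CPM in mutants and 165, 111 and 132 CPM in wild type with TCDD, and 87.3, 79.9, 97.9 and 92.3 CPM in mutants against 131, 121 and 165 CPM in wild type in DMSO. Its mutant libraries were all below its wild-type libraries (-0.58 ± 0.14 with TCDD and -0.64 ± 0.14 in DMSO, adjusted p = 0.00481 and 0.00476).

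NDUFB1 was lower in mutants by -1.34 ± 0.19 in DMSO (adjusted p = 0.000168) and by -0.55 ± 0.19 with TCDD (adjusted p = 0.0392), the TCDD call being lost without any of 6 libraries (adjusted p 0.051 to 0.107). ndufa3 gave -0.61 ± 0.19 and -0.58 ± 0.19 (adjusted p = 0.034 in DMSO and 0.032 with TCDD, and up to 0.12 and 0.205 without single libraries). cox6c was lower in mutants in DMSO (-1.04 ± 0.25, adjusted p = 0.00923). So were atp5meb, subunit e of the synthase (-1.21 ± 0.29, adjusted p = 0.00916, or 0.0608 without wild-type DMSO replicate 1) and atp5pb (-0.76 ± 0.18, adjusted p = 0.00782). ndufs6 (-0.91 ± 0.24, adjusted p = 0.0153, and 0.0503 to 0.118 without either of 2 libraries) and uqcrc2a (-0.50 ± 0.11, adjusted p = 0.00443) were lower too. With TCDD these 5 did not pass the test between lines, at -0.01, -0.60, -0.07, -0.10 and 0.13.

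**Figure D5:**
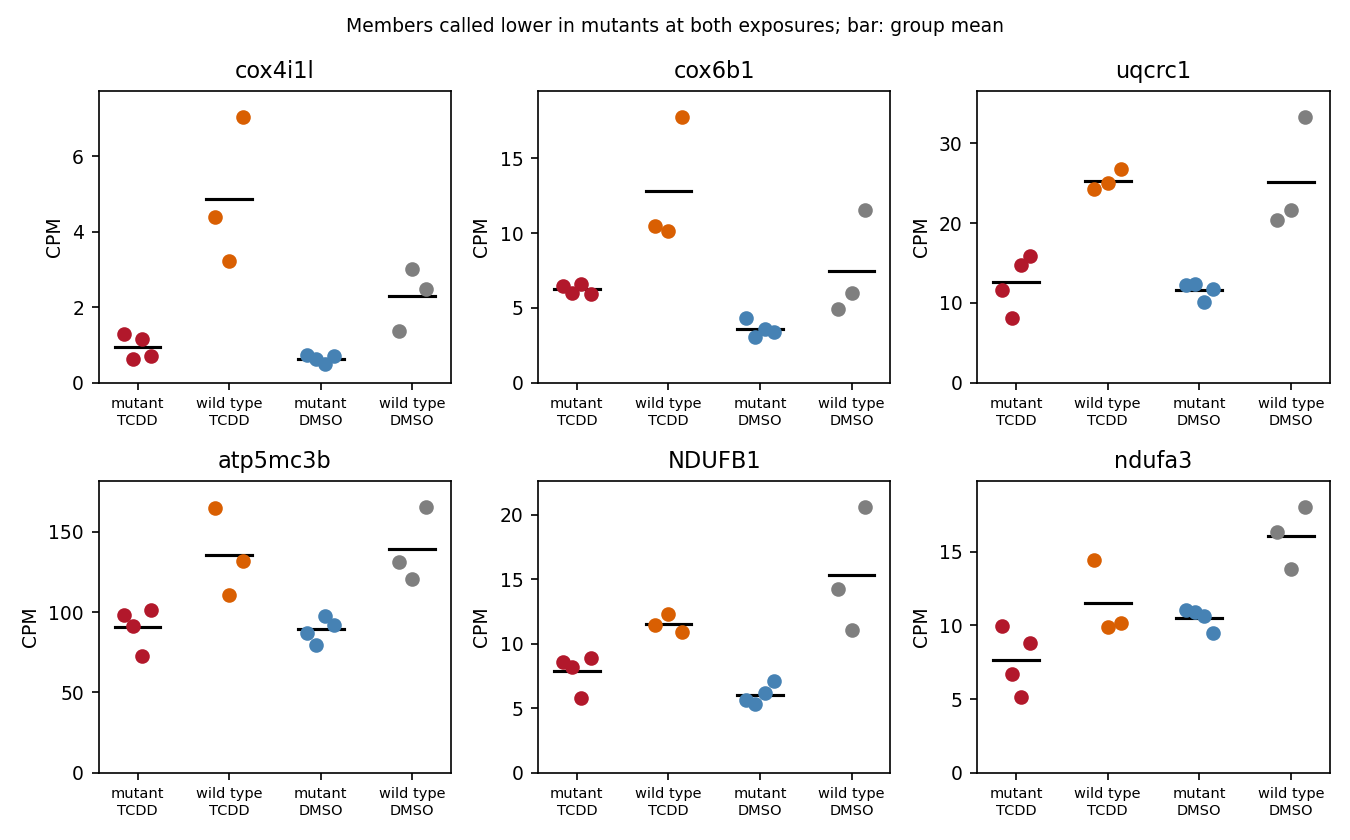
CPM of the 6 members that were lower in mutants than in wild type at both exposures, in each library; bars are group means (n = 4, 3, 4 and 3 libraries from left to right). For cox4i1l, uqcrc1, atp5mc3b and NDUFB1 every mutant library lies below every wild-type library.

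Higher in mutants with TCDD were ndufv1 (0.41 ± 0.07, adjusted p = 0.000376), uqcrfs1 (0.39 ± 0.08, adjusted p = 0.0011), cox5ab (0.54 ± 0.13, adjusted p = 0.00501), atp5fa1 (0.52 ± 0.11, adjusted p = 0.00169) and mt-atp6 (0.51 ± 0.07, adjusted p = 5.96e-05), each whichever library was left out. With the library score as a term mt-atp6 kept its call, while adjusted p was 0.0514 for ndufv1, 0.221 for uqcrfs1, 0.165 for cox5ab and 0.244 for atp5fa1. ndufs7, which carries the last iron-sulfur cluster before ubiquinone, had 12.2, 7.45, 12.4 and 12 CPM in mutants and 0.402, 3.93 and 2.21 CPM in wild type with TCDD. These groups did not overlap (2.32 ± 0.53, adjusted p = 0.00373), but the wild-type values spread widely, as did the DMSO groups at 2.8 to 8.61 CPM in mutants and 2.14 to 8.61 CPM in wild type. ndufa1 was the single member higher in mutants at both exposures, from few reads: 8, 28, 5 and 28 counts in mutants and 3, 2 and 4 counts in wild type with TCDD, and 15, 27, 18 and 11 counts in mutants against 3, 5 and 0 counts in wild type in DMSO. Its groups did not overlap, its adjusted p was 0.0194 with TCDD and 0.0234 in DMSO, and single libraries ended both calls (adjusted p up to 0.0783 and 0.0929). mt-nd2 was higher in mutants with TCDD by 0.28 ± 0.09 (adjusted p = 0.0349, and 0.0597 to 0.156 without any 1 of 4 libraries). In DMSO, 0 of 13 mitochondrial genes passed the test between lines by edgeR or DESeq2, and 1 had an unadjusted p under 0.05.

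Other mitochondrial genes were counted against the same background, where 17.5% of all tested genes rose and 18.6% fell in mutants, and 8.84% rose and 5.75% fell in wild type. Mitochondrial ribosomal protein genes, which build the machine that translates the 13 mitochondrial messages, rose in mutants in 32 of 66 tested and fell in 2, and in wild type 1 rose and 3 fell. Cytosolic ribosomal protein genes rose in 61 of 79 in mutants, where 1 fell, and in 40 of 79 in wild type. Of 15 citric acid cycle genes 7 rose in mutants and 1 in wild type, the fumarase gene fh being higher in both (0.96 ± 0.12, adjusted p = 2.74e-05, and 0.45 ± 0.13, adjusted p = 0.0317). The citrate synthase gene cs fell in wild type (-0.27 ± 0.07, adjusted p = 0.0197). Of 40 assembly factors 4 rose and 1 fell in mutants, and 0 rose and 1 fell in wild type. Electron carriers and their makers rose in 7 of 14 in mutants and 3 of 14 in wild type, cyc1 among them in both, and etfa, a subunit of the electron transfer flavoprotein, fell in wild type (-0.45 ± 0.09, adjusted p = 0.00516). Membrane carriers rose in 8 of 17 in mutants and 5 of 17 in wild type, and 1 fell in each line. slc25a5, which exchanges ADP for ATP across the inner membrane, rose in both (0.84 ± 0.10, adjusted p = 1.89e-05, and 0.53 ± 0.11, adjusted p = 0.00653).

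Genes for the upkeep and expression of mitochondrial DNA rose in 6 of 27 in mutants and 1 of 27 in wild type, where 3 fell. Of 13 regulators of mitochondrial biogenesis, 2 rose and 3 fell in mutants and 2 fell in wild type. The shares that rose in mutants, 22.2% and 15.4%, were near that of all tested genes. So was the 23.1% of regulators that fell in mutants, where 18.6% of all tested genes fell. nrf1, a transcription factor that in mammals binds promoters of many respiratory chain genes, was lower with TCDD in both lines (-0.37 ± 0.07, adjusted p = 0.0010, in mutants and -0.41 ± 0.08, adjusted p = 0.00623, in wild type). ppargc1b, a coactivator of the same programme in mammals, was lower in mutants (-0.41 ± 0.06, adjusted p = 0.00016), as was the estrogen-related receptor gene esrrb (-0.33 ± 0.10, adjusted p = 0.0188). Of the 2 regulators that rose in mutants, esrrgb, of the same receptor family, did so from few reads (1.40 ± 0.41, adjusted p = 0.0144). It had 18, 23, 22 and 25 counts in mutants with TCDD and 5, 13, 12 and 3 in mutants in DMSO. In wild type esrrgb gave a similar value that did not pass the test (1.34 ± 0.47, adjusted p = 0.0675). The other regulator was yy1a, a copy of the transcription factor YY1 (0.31 ± 0.10, adjusted p = 0.0198). Its other copy yy1b fell in wild type (-0.38 ± 0.09, adjusted p = 0.0138). The coactivator gene ppargc1a passed the test in neither line (-0.14 ± 0.13 in mutants and 0.45 ± 0.15 in wild type, adjusted p = 0.448 and 0.0604). These lists were described by their counts and were not tested as sets.

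Marker genes of the same tissues also moved with TCDD. Of all tested genes, 17.5% rose and 18.6% fell in mutants, and 8.84% rose and 5.75% fell in wild type. Summed fast muscle markers (10 genes) were 37190 to 43620 CPM in mutants with TCDD and 32880 to 35670 CPM in mutants in DMSO, without overlap, and 4 of 10 were higher and 0 lower. They were 39290 to 48080 CPM with TCDD against 35480 to 43680 CPM in DMSO in wild type, with 2 of 10 higher. Summed erythroid markers (5 genes, of which 2 were at 0 in some library) were 411.5 to 544 CPM in mutants with TCDD and 253.5 to 337.3 CPM in mutants in DMSO, and 3 of 3 tested rose in mutants and 1 of 3 in wild type. Summed neuronal markers (5 genes) were 2910 to 3101 CPM in mutants with TCDD and 3426 to 3561 CPM in mutants in DMSO, with 1 higher and 3 lower in mutants and 1 lower in wild type. Summed ionocyte markers (6 genes) were 722.5 to 802.5 CPM in mutants with TCDD and 612.4 to 720.8 CPM in mutants in DMSO, with 2 of 5 tested higher and 1 lower. In wild type they were 730.5 to 807.6 CPM with TCDD against 578.8 to 629.3 CPM in DMSO, with 1 higher and 1 lower. The ionocyte marker that fell in both lines was slc12a10.2 (-1.86 ± 0.19, adjusted p = 5.97e-06, in mutants and -1.20 ± 0.21, adjusted p = 0.00258, in wild type). atp1a1a.1 rose by 0.25 in mutants and 0.41 in wild type, so the sums do not stand for every ionocyte marker. Summed heart markers (7 genes) overlapped between TCDD and DMSO, at 59.73 to 68.33 CPM with TCDD and 57.5 to 69.94 CPM in DMSO in mutants, yet 3 of 6 tested rose and 1 fell there. They were at 77.29 to 85.53 CPM with TCDD and 72.1 to 87.35 CPM in DMSO in wild type, where 1 rose and 1 fell. Summed slow muscle markers (7 genes) overlapped as well in mutants, at 680.5 to 755.3 CPM with TCDD and 708.8 to 748.4 CPM in DMSO, while 3 of 7 rose in mutants, and in wild type 1 rose and 1 fell. Summed liver and yolk markers (7 genes) did too, at 17490 to 19470 CPM with TCDD and 15410 to 20110 CPM in DMSO in mutants, while 5 of 7 rose in mutants and 1 of 7 in wild type. The part of these cell types in the changes of the respiratory chain genes was not tested.

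The authors' deposited tables of significant genes list 60 members for TCDD in mutants, 21 for TCDD in wild type, 20 for mutants against wild type with TCDD and 15 for the same in DMSO. Of the members called here in those comparisons (59, 21, 21 and 15), the authors' deposited tables hold 59, 21, 20 and 15, each with the same sign.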

How the data were processed

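RNA from pools of whole embryos was made into stranded, poly(A)-enriched libraries and read as 100 bp single ends, per the labels' protocols. The submitters' processing notes name the GRCz11 build, edgeR, HTSeq 0.12.4, SAMtools 1.10, HISAT2 2.2.0 and cutadapt 1.8.1; the annotation release and the strand setting of the counting are not given in the sources used here. The authors deposited whole-number counts per gene for 14 libraries, and tables of significant genes with log2 fold changes and log2 CPM, F scores, p-values and FDR per the file headers. Member names came from the authors' tables for 70 genes and from an Ensembl gene-name table for 26.

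Counts were tested with edgeR 4.0.16 (R 4.3.3, limma 3.58.1): TMM scaling, filterByExpr by group, 1 mean per group over all 14 libraries, quasi-likelihood F test, Benjamini-Hochberg adjustment over 20098 genes holding 99.9% of all counts. Standard errors are the log2 fold change divided by the root of F. The common biological coefficient of variation was 0.151. The fit was tested on simulated counts. Alternatives were RLE scaling, scaling on nuclear genes, no filter, a filter of 1 CPM in 4 libraries, DESeq2 1.42.0, a replicate block, fits on the compared groups alone and leaving out each library; the library score as a term was added after seeing the data. Each library was its own dish, so p-values measure the spread between dishes.

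Named were all mitochondrial genes, up to 3 called nuclear members per complex, comparison and direction with the smallest adjusted p, members whose TCDD effect differed, isoform sets and the extremes of each comparison; ndufa5, ndufb10, ndufv2, uqcrh and the others named outside it were chosen after their values were seen. Members and gene lists were chosen with earlier results of these data known. Sequences were not used here.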

Additional observations from a re-analysis of the deposited data

Results flagged for a closer look

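Among named members, the highest or lowest library of a mutant group was tested for an unusually wide gap to its nearest neighbour, relative to the group's range (Dixon's 95% critical value for 4 libraries). The 118 groups so tested include those of the summed nuclear and mitochondrial shares. Of these 118, 7 passed, where chance gives about 1 in 20, so the count is near what chance alone gives. In mutants with TCDD, replicate 3 stood out for cox6c at 69.25 CPM, where the other 3 libraries had 34.22, 34.79 and 36.68 CPM, and for ndufb2 at 22.1 CPM, below 25.56 to 26.07 CPM. Replicate 2 of that group stood out for uqcrc2b at 183.6 CPM, above 150.9 to 154 CPM, for MT-ND5 at 1420 CPM, below 1590 to 1619 CPM, and for ndufs7 at 7.454 CPM, below 11.99 to 12.37 CPM. Replicate 1 stood out for ndufb6 at 15.23 CPM, below 17.29 to 17.56 CPM. In mutants in DMSO, replicate 4 stood out for mt-atp8 at 155.4 CPM, below 218.7 to 230.5 CPM.

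The effect of TCDD differed between lines (mutant minus wild type, log2, edgeR's quasi-likelihood test of the difference) by 0.63 for uqcrc2a, 0.39 for ndufv1, 0.54 for atp5fa1, 0.33 for mt-atp6, 0.41 for sdha, 0.48 for atp5pd and 0.34 for uqcrfs1. The adjusted p-values ran between 0.00984 and 0.0422.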

How the results depend on the processing

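The count of members that rose with TCDD in mutants (58) was 57 to 60 under RLE or nuclear-only scaling, other filters, DESeq2, the replicate block and the mutant libraries alone, 55 to 58 without single libraries, and 25 with the library score as a term; the count that fell (1) was 3 by DESeq2, 3 with the replicate block, 3 with the mutant libraries alone and 1 to 3 without single libraries. In wild type the count that rose (19) was 14 to 24 under these settings, 3 with the wild-type libraries alone and 5 to 29 without single libraries. The count that fell there (2) was 4 with RLE scaling, nuclear-only scaling, no filter, the CPM filter or DESeq2, 1 with the library score or the wild-type libraries alone, and 2 to 5 without single libraries. Members lower in mutants in DMSO (14) numbered 5 with the library score and 8 to 19 without single libraries, and those higher (1) 0 under the CPM filter, which leaves out ndufa1, and 0 to 1 without single libraries. Members higher in mutants with TCDD (14) numbered 1 with the library score and 7 to 13 without single libraries; those lower (7) 5 to 8. Members whose TCDD effect was higher in mutants (7) numbered 14 with nuclear-only scaling, 16 without a filter, 14 under the CPM filter, 14 by DESeq2, 0 with the library score and 2 to 16 without single libraries; those lower (0) stayed at 0 in every setting run. With the library score, sdhdb turned to −0.022 between lines with TCDD (adjusted p = 0.948). Over all tested genes, nuclear-only scaling moved the split for mutants against wild type with TCDD from 2157 higher and 3395 lower to 2932 higher and 3034 lower. With the library score, genes that rose went from 3524 to 963 in mutants and from 1777 to 683 in wild type. Genes with a higher TCDD effect in mutants numbered 372 in the main fit. They numbered 763 with nuclear-only scaling, 571 without a filter, 779 under the CPM filter and 832 by DESeq2. The causes were not tested.

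Same-numbered libraries correlated between −0.357 and 0.206 in their deviations from group means, so no pairing by number was seen. These deviations also hold the leading component of the library score, so the check cannot exclude a weaker effect shared by a number. With the replicate block, 57 members rose and 3 fell in mutants, 18 rose and 3 fell in wild type, 11 were higher and 7 lower in mutants with TCDD, 1 was higher and 12 were lower in mutants in DMSO, and 7 differed in their TCDD effect. Of the 7 main calls of that difference 5 were kept, with sdha at an adjusted p of 0.0502 and atp5pd at 0.0731, and ndufa1 lost both line calls (0.0662 with TCDD and 0.0617 in DMSO). Over all 20098 tested genes, the block gave 3335 that rose and 3520 that fell in mutants, and 1498 and 994 in wild type. Between lines, 1792 were higher and 2952 lower in mutants with TCDD, and 1324 and 1427 in DMSO. The TCDD effect was higher in mutants for 317 genes and lower for 1901. Mean mitochondrial shares moved by less than 1 SD without single libraries or as shares of filtered nuclear counts. Members at few counts (such as ndufa1, NDUFB9, SDHD and cox8b) allow no firm fold.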

Other observations

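Outside the chain, 3 genes of mitochondrial proteins were far lower in mutants than in wild type. slc25a4, an ADP/ATP carrier of the inner membrane, had 1.4, 0.97, 0.556 and 0.853 CPM in mutants and 18.6, 11.9 and 15.5 CPM in wild type with TCDD, and 0.58, 0.733, 1.13 and 1.03 CPM in mutants against 13.4, 14.3 and 23.1 CPM in wild type in DMSO. Every mutant library was below every wild-type library (-4.00 ± 0.27, adjusted p = 7.55e-08, with TCDD and -4.28 ± 0.28, adjusted p = 3.34e-08, in DMSO). mrps31, of the mitochondrial ribosome, had 0.933, 0.794, 2.73 and 1.47 CPM in mutants and 5.27, 6.0 and 5.84 CPM in wild type with TCDD, and 0.725, 1.03, 0.992 and 0.865 CPM in mutants against 4.58, 4.13 and 4.94 CPM in wild type in DMSO, again without overlap (-1.95 ± 0.29, adjusted p = 0.000134, and -2.32 ± 0.31, adjusted p = 8.8e-05). idh3g, of the NAD-dependent isocitrate dehydrogenase, had 9 to 15 counts in mutants with TCDD and 50 to 229 counts in wild type with TCDD (-3.74 ± 0.69, adjusted p = 0.000742). In DMSO it had 8 to 15 counts in mutants and 12 to 286 counts in wild type, with overlap (-3.58 ± 0.70, adjusted p = 0.00239). Whether these differences come with the wfikkn1 mutation or with other differences between the stocks was not tested.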
